A study of Homo sapiens with 6 samples.

Results

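The 52 genes described here encode the actin cytoskeleton of the cell and the adhesions that anchor it: the actins, the proteins that cross-link, move, wrap, cap, sever and nucleate their filaments, the focal adhesion proteins, the linkers to the membrane, and SRF with its coactivators. They were chosen by name, because calponin 3, the product of CNN3, binds actin, and earlier results of these data were known at that time. All 52 were found among the 48162 genes of the count table, and 51 of them had enough reads to be tested among 15860 genes.

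SiHa cells, an established line from a human cervical carcinoma, received 1 of 2 small interfering RNAs (siRNAs): si-CNN3#1, which targets CNN3, in 3 samples, and the control si-NC in 3 others. The authors describe 3 independent assays for each group. Whether an assay gave a sample of both groups is not stated. RNA was harvested at 48 h for sequencing. Both groups had the same cells, transfection and harvest time, and the knockdown group rests on 1 siRNA in 1 cell line, so that effects of losing CNN3 and other effects of this siRNA cannot be told apart. In bulk samples, fewer cells of a kind and less RNA per cell cannot be told apart either.

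Actin exists as single subunits and as filaments. Formins and the Arp2/3 complex start new filaments, profilins supply subunits, cofilins sever, capping proteins stop growth, and tropomyosins and caldesmon coat filaments and set which proteins can bind. Non-muscle myosin II pulls on bundles of filaments, and integrin adhesions join those bundles to the matrix through talin, vinculin and zyxin. Free actin subunits hold the coactivators MKL1 and MKL2 (also named MRTFA and MRTFB) out of the nucleus, and when filaments form, the coactivators bind SRF at CArG boxes, short elements in the promoters of many cytoskeletal genes. Calponins belong to the filament coat and share binding ground with tropomyosin.

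The siRNAs are shown first because their sequence is what differs between the groups. The strand printed is the sense strand as listed by the submitters, 5′ to 3′, and the capitals mark the 7 bases that a target must hold to pair with bases 2 to 8 of the guide, the seed.
si-CNN3#1: gcagaugggaaCCAACAAatt
si-NC: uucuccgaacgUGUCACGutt

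The guides that follow from them, without the overhang, carry the seeds in capitals.
si-CNN3#1 guide: uUUGUUGGuucccaucugc
si-NC guide: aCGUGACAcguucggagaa

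The match to the si-CNN3#1 seed, CCAACAA in DNA letters, was found in the 3′ untranslated region (UTR) of the longest coding transcript in 3 of the 51 tested members, and in 8.78% of the 12606 tested genes with such a region. The 3 members were ACTN4, ROCK2 and ACTR3. Their sites are printed within 30 bases of the transcript, with the match in capitals.
ACTN4: aggagatggccCCAACAAgcaccccgcttt
ROCK2: aacaggttgaaCCAACAAtgattggttgat
ACTR3: aagtgttacatCCAACAAcagatgaaagta

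The match to the si-NC seed, TGTCACG, was found in 2 members, ENAH and CTTN, and in 3.04% of those genes.
ENAH: aaaagtttacaTGTCACGtcactattcttt
CTTN: gccaaattgacTGTCACGcggcagcttcag
The values of these 5 genes are given below with their groups. A match of 7 letters is a description of the sequence and not a site of action, and its part in any value was not tested.

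CNN3 itself was measured at 26.0, 26.8 and 31.4 CPM with si-CNN3#1 and 56.5, 51.7 and 57.2 CPM with si-NC, where CPM is the read count scaled to a library of 1000000 reads after correction for composition. The groups lay apart, and the si-CNN3#1 mean was 50.9% of the si-NC mean (28.1 ± 2.95 against 55.2 ± 2.97 CPM, SD, n = 3; log2 fold change -0.97, SE 0.055, adjusted p = 2.04e-20). An exact two-sided permutation test gave p = 0.1, the smallest value that 3 samples against 3 allow. All adjusted p-values below come from the quasi-likelihood test of edgeR, adjusted by the Benjamini-Hochberg method over all 15860 tested genes, a gene is called at 0.05 or less, and folds are si-CNN3#1 over si-NC. SE is the standard error of a log2 fold change, and a number in parentheses straight after a gene's name is its log2 fold change.

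Total counts per sample ran from 18147028 to 24976517, and no pair of samples agreed within sampling noise. Of the 7 epithelial markers looked at, KRT7, KRT8 and KRT18 were abundant and KRT5, the basal keratin, stayed under 1 FPKM (fragments per kilobase of gene length per 1000000 reads). CDKN2A, which is high in lines transformed by papillomavirus, was at 345 ± 7.49 FPKM with si-NC (SD, n = 3). Desmin (DES), MYH11 and CNN1, which define contractile smooth muscle, were each under 1 FPKM. The smooth muscle list as a whole summed to between 41.0 and 43.3 FPKM with si-CNN3#1 and between 46.0 and 47.0 with si-NC, mostly from SMTN, 1 of 5 genes and the only one called (-0.19). KRT8 (-0.19) and KRT18 (-0.18) were called lower, the only 2 of the 6 tested epithelial genes. KRT7 (0.064) lay higher in every si-CNN3#1 sample than in any si-NC sample but was not called (adjusted p = 0.0832 with edgeR). None of the 3 tested fibroblast genes was called by edgeR or DESeq2 (0 at an unadjusted p under 0.05), and the fibroblast list summed to at most 8.42 FPKM in any sample. VWF and CDH5, the endothelial genes looked at, summed to at most 0.402 FPKM and were not tested. Of 4 leukocyte genes, PTPRC stayed under 1 FPKM, and CD14 was called lower (-0.30). The list summed to between 110.6 and 116.5 FPKM with si-CNN3#1 and between 130.7 and 141.3 with si-NC. The part of these markers in the results below was not tested.

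Between si-CNN3#1 and si-NC, 13 of the 51 tested members were called, 8 higher and 5 lower, and every difference was small. The called members were spread over the roles rather than gathered in 1 of them. MYH9, MYLK, TPM2, TPM4, ENAH, DSTN, LIMK1 and ACTR3 were higher, and FSCN1, MYH10, TLN1, VASP and DIAPH1 were lower. The smallest called difference was 0.0786 and the largest 0.256 on the log2 scale, with a median size of 0.12, against a median of 0.183 over all called genes. In all, 38 of the 51 members had a log2 fold change of under 0.1 in size.

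The members called came to 25.5%, where 13.3% of all tested genes were called. The higher calls stood against 6.17% of all tested genes and the lower calls against 7.14%. Calls were more frequent among abundant genes, however, and most members are abundant. At a mean of at least 100 CPM, a limit set after the values were seen, 10 of 39 members were called (25.6%), against 29.1% of all tested genes at that level. At that level the share of members called was near the background, and the share is not read as a result about the group. Members below that level, and the shares that follow, were not set against genes of like abundance. DESeq2 called 10 of the 51 members, 5 in each direction, against 7.77% of all tested genes. The groups did not overlap in CPM for 22 of the 51 members (43.1%), against 28.2% of all tested genes. These 22 include all 13 that were called. The median log2 fold change was 0.0335 over the members and 0.00226 over all tested genes, and 35 members lay above 0.

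With total counts in place of composition-corrected library sizes, 17 members were called, 12 higher and 5 lower, and 60% of all calls were higher against 46.3%. Without si-NC replicate 2, 10 members were called, 4 higher and 6 lower. With limma on log2(FPKM + 1), 2 members were called, ENAH higher and FSCN1 lower. The 13 called members kept their direction under each of the 17 other settings tried.

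**Figure D1:**
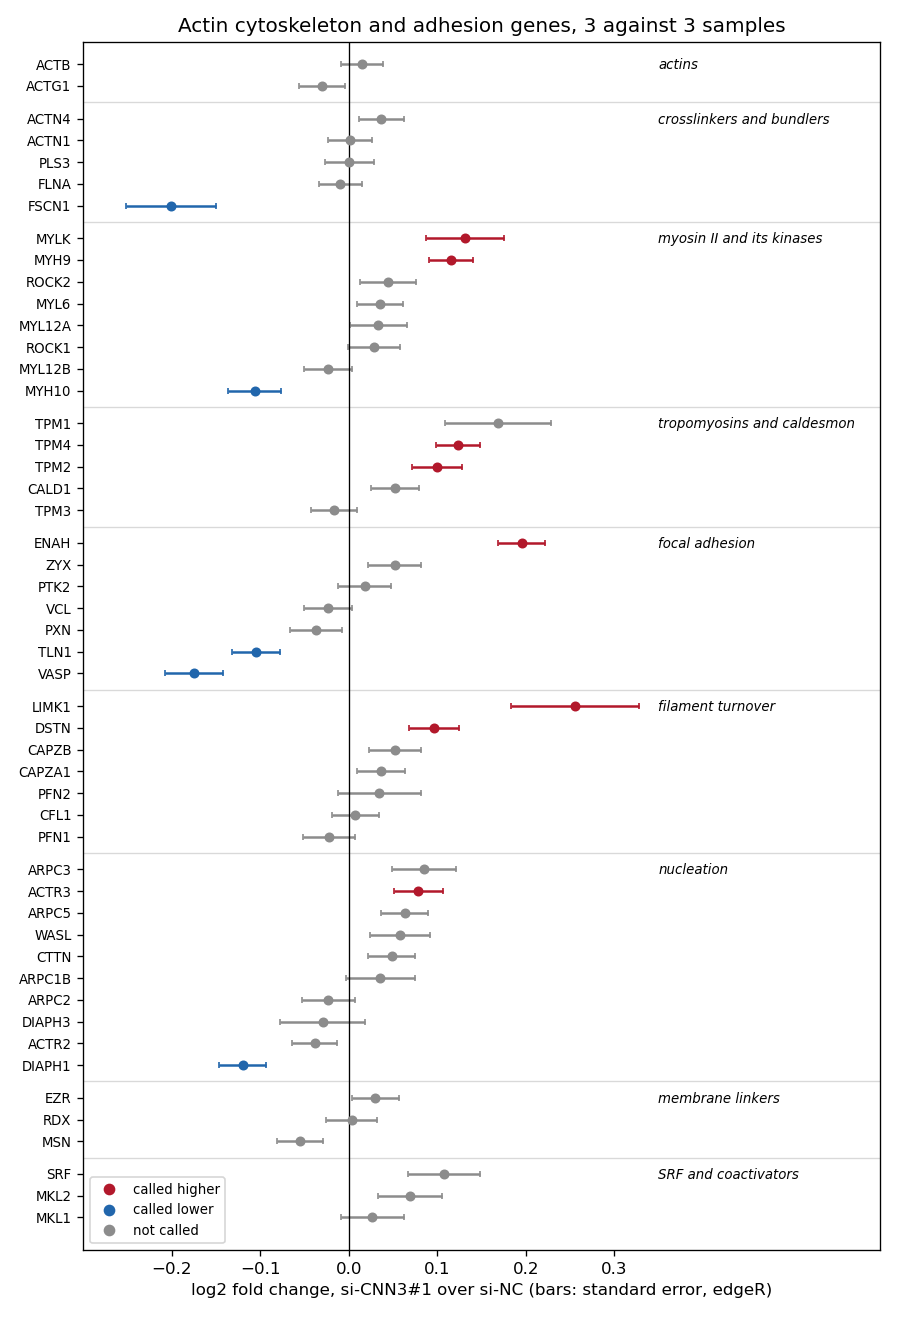
Log2 fold change of 50 members (x axis, si-CNN3#1 over si-NC, bars are standard errors from edgeR, 3 samples a group), ordered by role, with ILK and MYL9 left out for low counts. Called members in red and blue lie on both sides of 0 within myosin II, focal adhesion and nucleation, and no value exceeds 0.256 in size.

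The actins were the most abundant members and neither was called by edgeR or DESeq2 (0 at an unadjusted p under 0.05). ACTB, beta-actin, was measured at 3934, 3726 and 3783 CPM with si-CNN3#1 and 3840, 3712 and 3772 CPM with si-NC. ACTG1, the cytoplasmic gamma-actin, was measured at 2214, 2076 and 2177 CPM with si-CNN3#1 and 2263, 2106 and 2236 CPM with si-NC. The groups overlapped for both, with log2 fold changes of 0.015 ± 0.024 (SE), adjusted p = 0.762 and -0.03 ± 0.026 (SE), adjusted p = 0.512. Together the pair took between 0.586% and 0.614% of the reads with si-CNN3#1 and between 0.58% and 0.604% with si-NC.

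Levels between genes can be compared only per length, and here the length matters. The deposited FPKM of the members rested on 1 length per gene, which for 59.9% of all genes with a length lay within 1 base of the mean length of their transcripts in GENCODE 29. For MYH9 that length was 1203 bases, while its longest coding transcript has 7554. In deposited FPKM with si-NC, the order began with ACTB at 3691 ± 49.0, ACTG1 at 1551 ± 53.8, MYH9 at 1244 ± 16.7, TPM4 at 831 ± 7.55 and PFN1 at 773 ± 23.6 (SD, n = 3). Each neighbour in this order differed by more than their SDs. Per kilobase of the longest coding transcript the order began with ACTB, ACTG1, PFN1, TPM4 and MYL6, at 1965, 976, 604, 295 and 292 CPM per kilobase, with TPM4 and MYL6 closer than the SD of TPM4. MYH9 then stood in place 9 of 52. ACTB and ACTG1 led on both scales. At the low end, ILK was at 0.660 ± 0.437 FPKM and MYL9 at 0.0148 ± 0.0256 FPKM. Most exon bases of ILK lie in exons of other genes, as described below, so its level is uncertain.

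**Figure D2:**
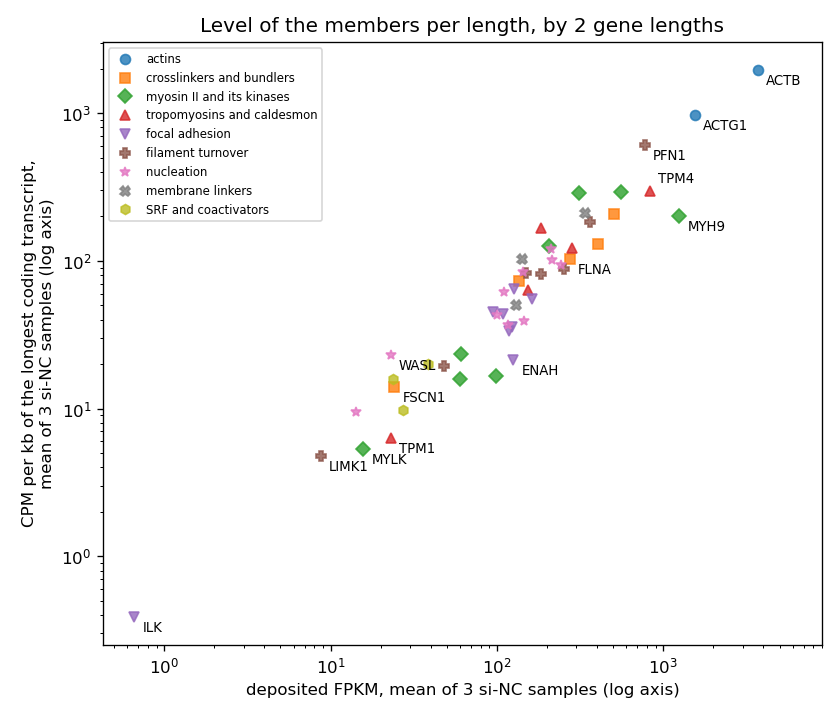
Level of the members with si-NC by deposited FPKM (x axis) and by CPM per kilobase of the longest coding transcript (y axis), means of 3 samples, both axes logarithmic, with 1 symbol per role. ACTB and ACTG1 lead on both scales, MYH9 stands lower on the y axis than its FPKM neighbours, and ILK lies far below the rest (MYL9, at under 0.1 FPKM, is not drawn).

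Of the 5 crosslinkers and bundlers, 1 fell and 4 were not called. FSCN1, fascin, packs filaments into the parallel bundles of filopodia (gene at chr7:5592823-5606655, GENCODE 29 on GRCh38). It was measured at 34.3, 33.1 and 33.6 CPM with si-CNN3#1 and 39.4, 38.9 and 37.8 CPM with si-NC, and every si-CNN3#1 sample lay below every si-NC sample. Its mean was 87.0% of that with si-NC (log2 fold change -0.20, SE 0.051, adjusted p = 0.00412), and it was called under 16 of the 17 other settings. The alpha-actinins ACTN1 (0.0016) and ACTN4 (0.037), which space filaments in stress fibres, filamin A (FLNA, -0.0096), which joins filaments into networks, and plastin 3 (PLS3, 0.00086) had overlapping groups and were not called. ACTN4, with the seed match, was measured at 675, 663 and 643 CPM with si-CNN3#1 and 647, 649 and 635 CPM with si-NC.

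Among myosin II and its kinases, 2 of 8 tested genes rose and 1 fell, and the heavy chains moved in opposite directions. MYH9, the heavy chain of myosin IIA (chr22:36281277-36388067), was measured at 1688, 1626 and 1584 CPM with si-CNN3#1 and 1536, 1486 and 1500 CPM with si-NC. MYH10, the heavy chain of myosin IIB (chr17:8474205-8630761), was measured at 169.8, 174 and 162 CPM with si-CNN3#1 and 184, 181 and 179 CPM with si-NC. The groups lay apart for both, with MYH9 at 108% of the si-NC mean (log2 fold change 0.12, SE 0.025, adjusted p = 4.55e-04) and MYH10 at 92.8% (log2 fold change -0.11, SE 0.030, adjusted p = 0.0111). The call of MYH10 was lost when si-CNN3#1 replicate 3 (adjusted p = 0.107) or si-NC replicate 1 (adjusted p = 0.0681) was left out, while that of MYH9 held in all 6 such fits.

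The ratio of MYH10 to MYH9 reads within a sample does not depend on library size. It was 0.101, 0.107 and 0.102 with si-CNN3#1 and 0.120, 0.122 and 0.120 with si-NC. The means were 0.103 ± 0.00342 and 0.120 ± 0.00108 (SD, n = 3), a difference of -0.22 on the log2 scale. Of 8 such ratios between related members this was the only one whose groups did not overlap. The exact two-sided permutation p was 0.1, the smallest that 3 samples against 3 allow, and 0.686 after adjustment over the 8 ratios, so no ratio could pass the threshold in this design.

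MYLK, the myosin light chain kinase, was measured at 57.4, 62.3 and 56.5 CPM with si-CNN3#1 and 54.9, 53.8 and 52.4 CPM with si-NC. The groups lay apart (log2 fold change 0.13, SE 0.044, adjusted p = 0.0363), but the call was lost without si-CNN3#1 replicate 2 (log2 fold change 0.0863, a value lower by over 1.5 times, adjusted p = 0.292), si-NC replicate 2 (0.0812) or si-NC replicate 3 (0.154). It was also lost with DESeq2 (adjusted p = 0.119) and with no filter on low counts (0.0668). The kinases ROCK1 (0.029) and ROCK2 (0.044), which act below RhoA on the myosin light chain, were not called. ROCK2, with a seed match, was measured at 133, 138 and 138 CPM with si-CNN3#1 and 134, 132 and 129 CPM with si-NC, and the groups overlapped. The light chains MYL6 (0.035), MYL12A (0.034) and MYL12B (-0.024) were not called. The regulatory light chain of smooth muscle, MYL9, had between 0 and 5 reads in each sample and was not tested, so no difference in it was detectable at this depth.

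The tropomyosins and caldesmon held 2 called genes of 5, both higher. TPM4, a short non-muscle tropomyosin (chr19:16067021-16103005), was measured at 875, 838 and 856 CPM with si-CNN3#1 and 793, 775 and 791 CPM with si-NC. TPM2 was measured at 246, 242 and 253 CPM with si-CNN3#1 and 231, 224 and 237 CPM with si-NC. Both separated the groups, with log2 fold changes of 0.12 ± 0.025 (SE), adjusted p = 1.81e-04 and 0.1 ± 0.028 (SE), adjusted p = 0.0105. TPM4 held its call in all 6 fits that left out a sample. TPM2 lost it without si-CNN3#1 replicate 3 (adjusted p = 0.0643) or si-NC replicate 2 (0.12). TPM1, a source of long isoforms in stress fibres, was measured at 26.8, 29.1 and 28.7 CPM with si-CNN3#1 and 23.1, 26.6 and 25.3 CPM with si-NC, and though the groups lay apart it was not called (log2 fold change 0.17, SE 0.060, adjusted p = 0.0513). With si-CNN3#1 replicate 1 left out it was called (adjusted p = 0.041), as it was without si-NC replicate 2 (0.0214), with upper quartile factors (0.0442), with total counts (0.0297) and with the replicate block (0.0222). The other 4 fits that left out a sample gave adjusted p between 0.104 and 0.286. TPM3 (-0.017) and caldesmon (CALD1, 0.052), which ties myosin to actin, were not called. The ratio of TPM1 to TPM4 overlapped between groups.

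Of 8 focal adhesion genes, 1 rose, 2 fell and 5 were not called, and the 2 members of the Ena/VASP family moved in opposite directions. ENAH (Mena; chr1:225486835-225653142), which holds growing filament ends free of capping proteins, was measured at 325, 315 and 326 CPM with si-CNN3#1 and 276, 282 and 285 CPM with si-NC. VASP (chr19:45506579-45526983), its relative, was measured at 115, 111 and 112 CPM with si-CNN3#1 and 128, 124 and 130.4 CPM with si-NC. In every si-CNN3#1 sample ENAH was above, and VASP below, all si-NC samples. The means were 114% of si-NC for ENAH (log2 fold change 0.20, SE 0.027, adjusted p = 1.03e-07) and 88.5% for VASP (log2 fold change -0.18, SE 0.033, adjusted p = 6.63e-05). Both calls held in all 6 fits that left out a sample, and ENAH, with the match to the si-NC seed, was called under 16 of 17 other settings and VASP under 14.

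TLN1, talin 1, switches integrins on and carries the load between them and actin (chr9:35696948-35732395). It was measured at 277, 276 and 268 CPM with si-CNN3#1 and 290.1, 294 and 299 CPM with si-NC, with groups apart (log2 fold change -0.10, SE 0.027, adjusted p = 0.00449). The call held without any 1 sample, with adjusted p between 0.00711 and 0.0428. Vinculin (VCL, -0.023), which reinforces talin, zyxin (ZYX, 0.052), which gathers where fibres are under tension, paxillin (PXN, -0.036), the scaffold of young adhesions, and the focal adhesion kinase gene PTK2 (0.018) had overlapping groups and were not called. ILK, a pseudokinase of the integrin tail, had between 9 and 28 reads per sample and was not called (0.17 ± 0.345 (SE), adjusted p = 0.821). Of its exon bases 78.5% lie in exons of other genes, 2374 of them of TAF10 on the opposite strand, and whether reads were counted by strand is not given in the sources used here, so that reads of ILK and TAF10 cannot be told apart.

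**Figure D3:**
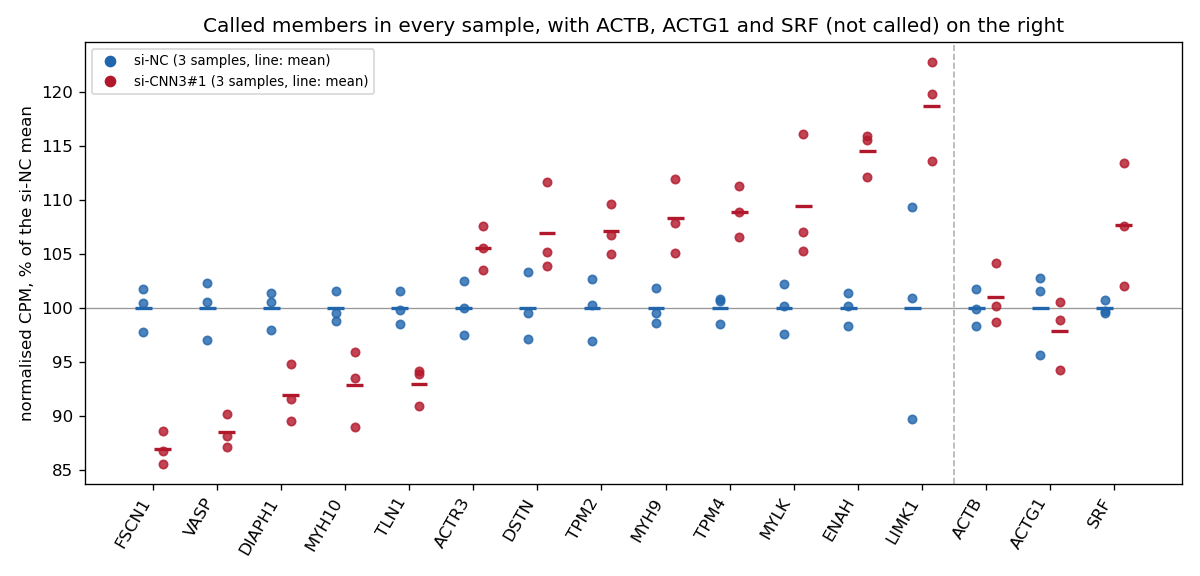
Normalised CPM of the 13 called members in each sample as a percent of the si-NC mean (y axis), si-NC in blue and si-CNN3#1 in red, lines are means of 3 samples, with ACTB, ACTG1 and SRF, which were not called, right of the dashed line. The groups lie apart for each called member and overlap for ACTB and ACTG1, and the si-NC points of LIMK1 scatter most.

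In filament turnover, 2 of 7 genes rose. LIMK1, the kinase that switches cofilin off, showed the largest difference of any member and is among the least abundant. It was measured at 19.6, 18.1 and 19.1 CPM with si-CNN3#1 and 17.4, 14.3 and 16.1 CPM with si-NC (log2 fold change 0.26, SE 0.073, adjusted p = 0.0112). The lowest si-CNN3#1 sample lay just above the highest si-NC sample. The call was lost without si-CNN3#1 replicate 1 (adjusted p = 0.0624) or si-NC replicate 2 (0.168), and with DESeq2 (0.0718). DSTN, destrin, a cofilin relative that severs filaments and binds subunits, was measured at 307, 311 and 330.2 CPM with si-CNN3#1 and 287, 294 and 306 CPM with si-NC (log2 fold change 0.096, SE 0.028, adjusted p = 0.0154). Its groups were separated by a narrow gap, and the call was lost without si-CNN3#1 replicate 3 (log2 fold change 0.063, a value lower by over 1.5 times, adjusted p = 0.178), si-NC replicate 1 (0.127) or si-NC replicate 2 (0.0518). With the GC and length correction it was lost too (log2 fold change 0.0675, adjusted p = 0.0829).

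CFL1, cofilin 1, the most abundant severing factor by FPKM at 361 ± 8.22 (SD, n = 3), was at 0.0076 and was not called. The profilins PFN1 (-0.022) and PFN2 (0.035) and the capping protein genes CAPZA1 (0.036) and CAPZB (0.052) were not called either. For CAPZA1 and CAPZB all si-CNN3#1 samples lay above all si-NC samples, where groups lay apart in either direction for 28.2% of all tested genes.

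In nucleation, 1 of 10 genes rose and 1 fell. DIAPH1, the formin mDia1, which grows unbranched filaments below RhoA (chr5:141515016-141619055), was measured at 338, 327 and 319.5 CPM with si-CNN3#1 and 362, 349.5 and 359 CPM with si-NC. Its mean was 92.0% of si-NC (log2 fold change -0.12, SE 0.027, adjusted p = 9.06e-04), with groups apart and adjusted p between 0.000446 and 0.0117 when a sample was left out. The formin DIAPH3 (-0.029) was not called. ACTR3, Arp3 of the branching Arp2/3 complex, carries the seed match and was measured at 259, 254 and 264 CPM with si-CNN3#1 and 246, 239 and 252 CPM with si-NC. It was the weakest call of the 13 (log2 fold change 0.079, SE 0.028, adjusted p = 0.0484), with groups apart, and it was lost without si-CNN3#1 replicate 1 (adjusted p = 0.1), si-CNN3#1 replicate 3 (0.173), si-NC replicate 1 (0.11) or si-NC replicate 2 (0.263). DESeq2 (adjusted p = 0.0933) and the fit with no filter on low counts (0.106) did not call it either, nor did the GC and length correction (log2 fold change 0.0448, lower by over 1.5 times, adjusted p = 0.31).

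Its partner Arp2, ACTR2, was at -0.039 and not called, but with the GC and length correction, where ACTR3 was not called, it was called lower (log2 fold change -0.0706, adjusted p = 0.0446). The other subunits ARPC1B (0.036), ARPC2 (-0.023), ARPC3 (0.085) and ARPC5 (0.063) were not called, though ARPC3 was with total counts (adjusted p = 0.0494) and ARPC5 with total counts (0.029) and the replicate block (0.0262). Not called either were the activator WASL (N-WASP, 0.058) and cortactin (CTTN, 0.048), which steadies branches. For ARPC3, ARPC5, WASL and CTTN the si-CNN3#1 samples all lay above the si-NC samples. Groups lay apart, in either direction, for 28.2% of all tested genes, so this is not read as a result about these genes. CTTN, with the match to the si-NC seed, was measured at 322, 312 and 311 CPM with si-CNN3#1 and 301, 307 and 306 CPM with si-NC. The Arp2/3 complex had 1 called subunit of 6 among the members, and of 15 further tested Arp2/3 subunits and activators edgeR and DESeq2 called 0 (4 at an unadjusted p under 0.05 with edgeR).

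The membrane linkers, ezrin (EZR, 0.03), moesin (MSN, -0.055) and radixin (RDX, 0.0032), tie cortical actin to membrane proteins. Of the 3, edgeR and DESeq2 called 0 (1 at an unadjusted p under 0.05 with edgeR), and the groups overlapped for each. MSN, the most abundant of them, passed the threshold without si-NC replicate 2 (adjusted p = 0.048) and with the replicate block (0.016).

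SRF and its coactivators were not called by edgeR or DESeq2, with 1 of the 3 at an unadjusted p under 0.05. SRF was measured at 75.0, 71.1 and 67.4 CPM with si-CNN3#1 and 66.6, 65.8 and 65.9 CPM with si-NC, and all si-CNN3#1 samples lay above the si-NC samples (log2 fold change 0.11, SE 0.040, adjusted p = 0.0667). Leaving out 1 sample moved SRF both ways. Without si-CNN3#1 replicate 3 the adjusted p was 0.0177, without si-CNN3#1 replicate 1 the log2 fold change was 0.0684, lower by over 1.5 times (adjusted p = 0.383), and the other 4 such fits gave adjusted p between 0.108 and 0.163. SRF was called with total counts (adjusted p = 0.0277), the replicate block (0.0284) and the GC and length correction (0.0212). MKL1 was measured at 93.5, 90.9 and 89.2 CPM with si-CNN3#1 and 91.7, 89.5 and 87.5 CPM with si-NC (log2 fold change 0.026, SE 0.036, adjusted p = 0.715) and its groups overlapped. MKL2 was measured at 88.7, 93.4 and 87.8 CPM with si-CNN3#1 and 87.4, 84.0 and 86.2 CPM with si-NC (log2 fold change 0.069, SE 0.036, adjusted p = 0.231), with groups apart. The ratio of MKL2 to MKL1 reads was 0.949, 1.03 and 0.985 with si-CNN3#1 and 0.953, 0.939 and 0.985 with si-NC, and the groups overlapped.

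**Figure D4:**
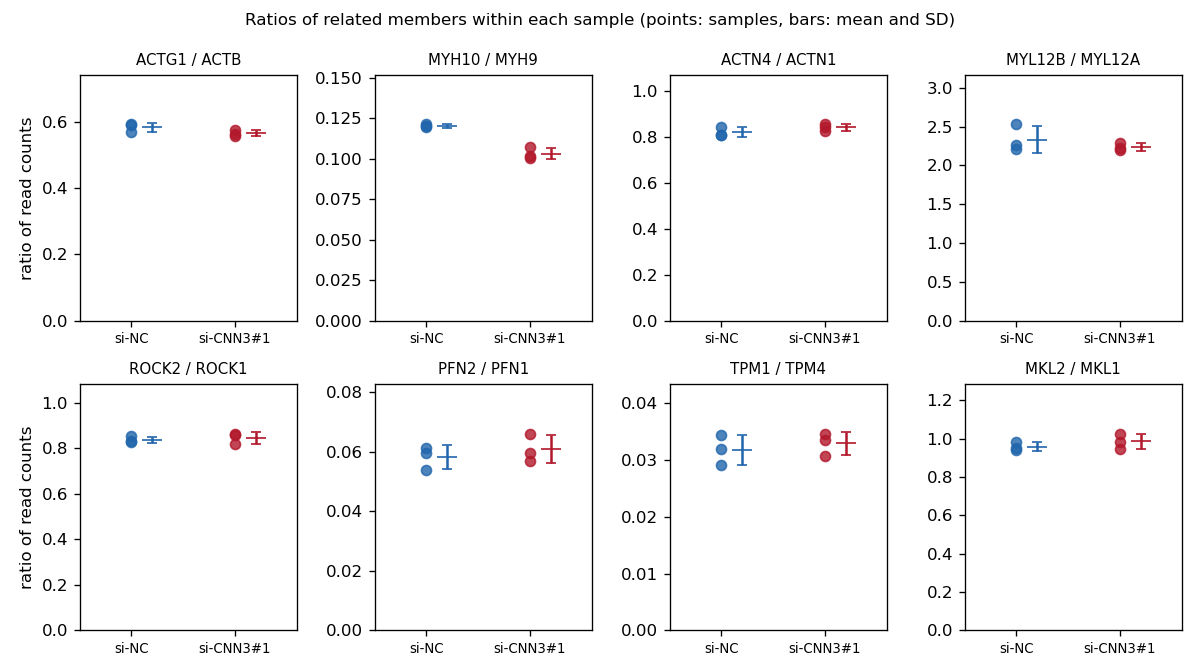
Ratio of read counts of 8 pairs of related members within each sample (y axes, from 0), si-NC in blue and si-CNN3#1 in red, points are samples and bars the mean and SD of 3. Only MYH10 to MYH9 separates the groups, at 0.103 against 0.12.

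The ratio of ACTG1 to ACTB was 0.563, 0.557 and 0.576 with si-CNN3#1 and 0.589, 0.567 and 0.593 with si-NC. These ranges overlapped, with a difference of -0.0450 on the log2 scale (exact two-sided permutation p = 0.2, 0.686 adjusted over the 8 ratios). For ACTN4 to ACTN1, MYL12B to MYL12A, ROCK2 to ROCK1 and PFN2 to PFN1 the groups overlapped too, with exact permutation p between 0.3 and 0.7.

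CArG boxes were searched in RefSeq promoters (GRCh38.p14, from 250 bases before to 50 after a start site), which covered 45 of the 52 members. The box reads alike on both strands. It was found in 7 of the 45 members (15.6%) and in 1.6% of all 27305 genes with a promoter. Each is printed in 30 bases on the gene's strand with the box in capitals, since it is the element through which SRF would act.
ACTG1: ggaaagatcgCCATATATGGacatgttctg
ACTN1: acgctcatgtCCAAAAATGGtaacattcat
FLNA: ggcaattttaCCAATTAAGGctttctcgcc
MYLK: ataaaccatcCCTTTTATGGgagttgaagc
ROCK2: aaatgtacttCCTTAAATGGgtttactggg
TPM4: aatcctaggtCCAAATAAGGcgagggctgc
SRF, outer box: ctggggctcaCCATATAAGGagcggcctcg
SRF, inner box: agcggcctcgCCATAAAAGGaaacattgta

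These windows lie at chr17:81512874-81512903, minus strand for ACTG1, chr14:68977718-68977747, minus strand for ACTN1, and chrX:154374709-154374738, minus strand for FLNA. Those of MYLK and ROCK2 lie at chr3:123620623-123620652, minus strand, and chr2:11345491-11345520, minus strand. The window of TPM4 lies at chr19:16067355-16067384, plus strand, and those of SRF at chr6:43171229-43171258, plus strand, and chr6:43171249-43171278, plus strand. All boxes are upstream of the start site searched and begin between 10 and 173 bases before it. ACTB, ARPC1B, CTTN, FSCN1, MYL9, PFN2 and PTK2 had no promoter in the table used. Of the 7 members with a box, MYLK and TPM4 were called higher, none was called lower, and ACTG1, ACTN1, FLNA, ROCK2 and SRF were not called. Among all tested genes 6.17% were called higher and 7.14% lower, and among the members 25.5% were called. With 7 genes no share is read from these calls, and the share among all genes with a box is not given here. The MYLK box lies within the gene (chr3:123610049-123884331, minus strand), towards its end and before an internal start site. The boxes of TPM4, ROCK2, ACTN1 and ACTG1 also lie within the spans of their genes, and those of FLNA and SRF lie outside. The calls of MYLK and TPM4 cover all reads of each gene and not those from the start site searched alone. A box is a match of letters and not evidence that SRF was bound there.

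Other genes of these pathways were counted in 8 further lists. Of their 130 tested genes, 19 rose and 11 fell (23.1% called, against 13.3% of all tested genes and more among abundant ones), with a median log2 fold change of 0.00607. SRF targets outside the members held the largest called differences. Of 16 tested, 5 rose and 1 fell, led by CTGF (0.84 ± 0.221 (SE), adjusted p = 0.00584), CYR61 (0.52 ± 0.035 (SE), adjusted p = 9.42e-18) and TUFT1 (0.43 ± 0.053 (SE), adjusted p = 6.87e-09). CTGF and CYR61 encode secreted matrix proteins that are also targets of YAP, and CTGF was low, at 2.37 ± 0.530 against 1.31 ± 0.270 CPM (SD, n = 3), and not called without si-CNN3#1 replicate 3 (adjusted p = 0.0962). CYR61 was measured at 151, 141 and 152 CPM with si-CNN3#1 and 108, 98.0 and 103 CPM with si-NC, with groups apart. FHL2 (log2 fold change 0.31) and THBS1 (0.22) were the other higher calls and JUNB (-0.21) the lower one, all 3 named after their values were seen.

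Of 20 small GTPases and regulators, 2 rose and 4 fell. CDC42, the GTPase that drives filopodia, was measured at 244, 243 and 252 CPM with si-CNN3#1 and 308, 298 and 304 CPM with si-NC, 81.2% of si-NC (log2 fold change -0.30, SE 0.027, adjusted p = 5.89e-13). RND3 (0.17), which opposes RhoA, rose, and ARHGAP1 (-0.16), which turns CDC42 off, fell. RND3 was not called without si-CNN3#1 replicate 3 (adjusted p = 0.0733) or si-NC replicate 3 (0.0675). Of 7 other formins tested, FHOD1 (-0.27) and FMNL3 (-0.21) fell, and 0 were called higher by edgeR or DESeq2 (1 at an unadjusted p under 0.05). FMNL3 was just inside the threshold (adjusted p = 0.0457), was called under 5 of 17 other settings and was not called by DESeq2 (0.161).

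Of 15 other myosins and phosphatase genes, 2 rose and 1 fell, among them MYO5A (0.30), a cargo carrier, and MYO9B (-0.12), a myosin that also acts on small GTPases. Of 24 other focal adhesion genes, 3 rose and 1 fell, led by KANK1 (0.28), which sits at the rim of adhesions, CRKL (-0.17), an adaptor, and TNS3 (0.14), a tensin. Of 14 other crosslinkers and filament binders, 3 rose and 1 fell, led by MARCKSL1 (-0.22) and PDLIM5 (0.16). Of 19 other turnover factors, 4 rose and 1 fell, led by CAP2 (0.20), whose groups overlapped and whose call was lost with DESeq2 (adjusted p = 0.0926) and without si-CNN3#1 replicate 1 (0.0713), si-CNN3#1 replicate 3 (0.0952), si-NC replicate 2 (0.281) or si-NC replicate 3 (0.0541), gelsolin (GSN, -0.19), which severs and caps filaments, and GMFB (0.15), which prunes Arp2/3 branches.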

How the data were processed

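RNA of 3 si-CNN3#1 and 3 si-NC samples was sequenced after a TruSeq library preparation. The authors aligned the reads with TopHat2 2.0.9, and the submitters' processing notes also name Bowtie2 2.0.6, HTSeq and DESeq 1.10.1. They deposited raw read counts per Ensembl gene and FPKM values computed from those counts. The genome build, annotation and strand handling are not given in the sources used here. Genes were named with GENCODE 29.

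Counts were tested with edgeR 4.0.16 in R 4.3.3 (TMM, default expression filter, quasi-likelihood test, Benjamini-Hochberg adjustment). SEs are the absolute log2 fold change over the square root of F. Alternatives were other scalings, DESeq2 1.42.0, other filters, a GC and length correction, a replicate block, each sample left out and limma 3.58.1, with a pseudocount of 1 or 0.1 added to FPKM before taking log2, a scale that understates changes of low genes. The comparison at 100 CPM was chosen after seeing the data. The members and lists were chosen with earlier results of these data known. CYFIP1, MARCKS and PECAM1 were not used here. All members are named, with values per sample for called members, actins, SRF, MKL1, MKL2 and the ratio that separated the groups, and at most 3 called genes of each other list, besides those said to be chosen later. A few genes of the other lists are not reported here.

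Total counts ran from 18147028 to 24976517, and the precision of single genes is given by their SEs (median 0.0283 over the tested members). Pairs within a group had a chi-square per degree of freedom between 1.56 and 1.97, so no library was counted double. Fold changes compare RNA shares and not amounts per cell.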

Additional observations from a re-analysis of the deposited data

How the results depend on the processing

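Of the counts of calls, those that moved by over 1.5 times did so with DESeq2 (1232 genes and 5 members called higher, against 2111 and 8), with limma and without si-NC replicate 2. With limma on log2(FPKM + 1) 582 genes, 2 members (1 higher, 1 lower) and 10 genes of the other lists were called, on log2(FPKM + 0.1) 478, 2 (1 and 1) and 7, and with no filter on FPKM 217, 0 (0 and 0; 16 members at an unadjusted p under 0.05) and 4. Leaving out 1 sample gave between 4 and 7 members called higher, between 4 and 6 lower, between 10 and 12 in all, and between 1551 and 1747 genes. CNN3 was called under each setting. The replicate block raised the calls to 17 members and 2727 genes. Same-numbered samples had correlations of 0.01, 0.033 and 0.028, and differently numbered ones had correlations between -0.027 and -0.001. All were small, the same-numbered ones were the higher, and whether the numbers pair the samples was not tested.

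None of CNN3, the called members and the called genes named from other lists changed direction under these settings. Some members that were not called changed sign, and the cause was not tested. With the GC and length correction ACTN1 was at -0.0142, FLNA at 0.0131, PLS3 at -0.0293, MYL12A at -0.00803, PTK2 at -0.000926, PFN2 at -0.000236 and RDX at -0.0277. With no filter on low counts ACTN1 was at -0.0042, PLS3 at -0.00499 and RDX at -0.00274. With total counts FLNA was at 0.00773 and TPM3 at 0.000827. With limma FLNA was at 0.00747 and TPM3 at 0.00063 on log2(FPKM + 1), with or without the filter, and at 0.00749 and 0.000632 on log2(FPKM + 0.1). With 1 sample left out at a time, the log2 fold changes ran as follows: ACTB between -0.00825 and 0.0312, ACTN1 between -0.0142 and 0.0147, FLNA between -0.0302 and 0.00392, PLS3 between -0.0151 and 0.0185, MYL12A between -0.00519 and 0.0613, PTK2 between -0.00723 and 0.0359, ILK between -0.215 and 0.803, CFL1 between -0.0119 and 0.0312, PFN1 between -0.0549 and 0.0295, ARPC2 between -0.0442 and 0.0113, DIAPH3 between -0.057 and 0.0115 and RDX between -0.0191 and 0.0328. The differences in log2 ratio ran likewise, for MYL12B to MYL12A between -0.0974 and 0.00266, ROCK2 to ROCK1 between -0.000347 and 0.0405, PFN2 to PFN1 between -0.000589 and 0.107 and TPM1 to TPM4 between -0.00938 and 0.11.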

Other observations

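Exons of 25 members share no base with another gene in GENCODE 29. Beside ILK, whose share was 78.5%, the largest shares were 32.4% for ARPC1B and 21.4% for TPM1. VCL shares 1109 exon bases with AP3M1 on the opposite strand, which was called higher (log2 fold change 0.156, adjusted p = 0.00153 with edgeR), and MYL6 shares 514 with SMARCC2, which was called lower (-0.111, adjusted p = 0.00506), while neither VCL nor MYL6 was called. Named pseudogenes of 17 members, 79 in all, are in the table. Their reads came to at most 5.26% of those of the parent gene, for TPM3, and to at most 1.53% for any called member (DSTN). How the counting treated reads that match several places is not given in the sources used here, so small differences of such genes are uncertain.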
